A study of Rattus norvegicus with 12 samples.

Results

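The kidney RNA pool of SD rats was set against the kidney RNA pools of 3 other strains, PCK, FHH and FHH.Pkhd1. The SD pool is measured by 3 of the 12 arrays of the series. Genes were chosen by measured values: the mean log2 signal of the SD arrays had to lie above, or below, the means of all 3 other pools, and genes were ordered by the smallest of the 3 differences. A gene was called when that smallest difference was at least 1.5-fold (0.585 on the log2 scale) and its limma adjusted p was under 0.05. For that p, the largest of the gene's 3 p-values was taken and then adjusted by the Benjamini-Hochberg method across the genes tested. By this rule 101 of 10895 genes tested (0.927%) had the SD pool outside the other 3, with 51 higher in SD (0.468%) and 50 lower in SD (0.459%). These shares are the background for every count of called list members below, and 1 call in a short list describes that gene only. The lists were chosen with earlier results of these data known, so the counts describe the lists and are no separate evidence.

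SD is the outbred Sprague Dawley stock, here with no mutation named in the labels. PCK is a strain that arose from Sprague Dawley rats and is mutant at Pkhd1, a gene behind recessive polycystic kidney disease. The inbred Fawn Hooded Hypertensive rat is labelled FHH. FHH.Pkhd1 is a congenic strain that carries a PCK segment of chromosome 9 on the FHH background. All rats were 30 days old and were fed the 5LOD diet, and no other treatment is named. Both kidneys of 6 animals were taken per strain, and RNA of the whole organ was pooled within the strain and hybridized to 3 arrays. The 3 arrays of a strain are therefore technical replicates of 1 pool. Standard errors (SE) and p-values here reflect array-to-array spread, so they compare pools and say nothing of how animals of a strain vary. In these whole-organ pools, fewer cells of a type and less RNA per cell cannot be told apart. Strain pairs of this kind are read for the effect of the mutation as PCK against SD. At a gene where SD stands apart from all other pools, SD differs in the same direction from FHH and FHH.Pkhd1 too. An end position does not show which pool departed, since FHH and FHH.Pkhd1 share 1 background that is neither SD nor PCK.

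The kidney filters plasma at the glomerulus, and the proximal tubule then takes back filtered proteins and solutes and secretes organic anions and drugs through paired uptake carriers and conjugating enzymes. Filtered vitamin D-binding protein, encoded by Gc and made mainly by the liver, is taken up there by the receptor megalin. Kidney RNA also contains RNA of blood held in its vessels, in which immature red cells carry globin, Ahsp and Alas2 transcripts.

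Segment markers of the kidney were bright in the SD pool. The proximal phosphate carrier Slc34a1 averaged 13.53 and the loop protein Umod 13.42 in SD (log2 signal), and the water channel Aqp2 averaged 12.16. Array medians were 6.41 to 6.46, so these lay far above the typical probe set. Arrays of 1 pool correlated at 0.9973 to 0.9985, and arrays of different pools at 0.9862 to 0.9959. Over all genes tested the median log2 difference was 0.003 for SD minus PCK, -0.041 for SD minus FHH and -0.052 for SD minus FHH.Pkhd1. The 3' minus 5' difference of the beta-actin control, which follows RNA integrity and labelling, was 1.10 in SD, against 1.33 in PCK, 1.39 in FHH and 1.20 in FHH.Pkhd1. The same quantity for GAPDH was -0.03 in SD, against 0.14 in PCK, 0.17 in FHH and 0.09 in FHH.Pkhd1. For both controls the 3 SD arrays lay below all 9 other arrays. The poly-A spike-in controls, which also follow labelling, averaged 10.465 in SD, against 10.815 in PCK, 11.108 in FHH and 10.007 in FHH.Pkhd1 (log2 signal). The part of these control differences in the results below was not tested.

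The size of the SD set can be read against the other pools under the same rule. PCK lay outside the other 3 pools at 129 genes (1.18%), FHH.Pkhd1 at 80 (0.734%) and FHH at 8 (0.0734%). These counts are not on equal terms. FHH and FHH.Pkhd1 share 1 background, and a pool with a near partner is less apt to lie outside. Without a size limit or test, the SD mean was the highest of the 4 at 2030 genes (18.6%) and the lowest at 3280 (30.1%). The 3 SD arrays lay above all 9 other arrays at 687 genes (6.31%) and below them at 1131 (10.4%), which is 1818 in all (16.7%). For all 101 called genes the SD arrays did not overlap those of any other pool, which the size limit and the p-value largely imply. The smallest difference of the genes higher in SD ran from 0.61 to 2.82 with a median of 0.84, and 19 of the 51 reached 2-fold. Among the genes lower in SD its size ran from 0.59 to 5.42 with a median of 0.77, and 14 of the 50 reached 2-fold. In 88 of the 101 genes the SD pool stood farther from its nearest pool than the other 3 pools stood from each other. Choosing genes by the smallest difference favours this, so the count is no separate evidence. PCK, the strain derived from SD, was the nearest pool at 47 of the 101.

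**Figure D1:**
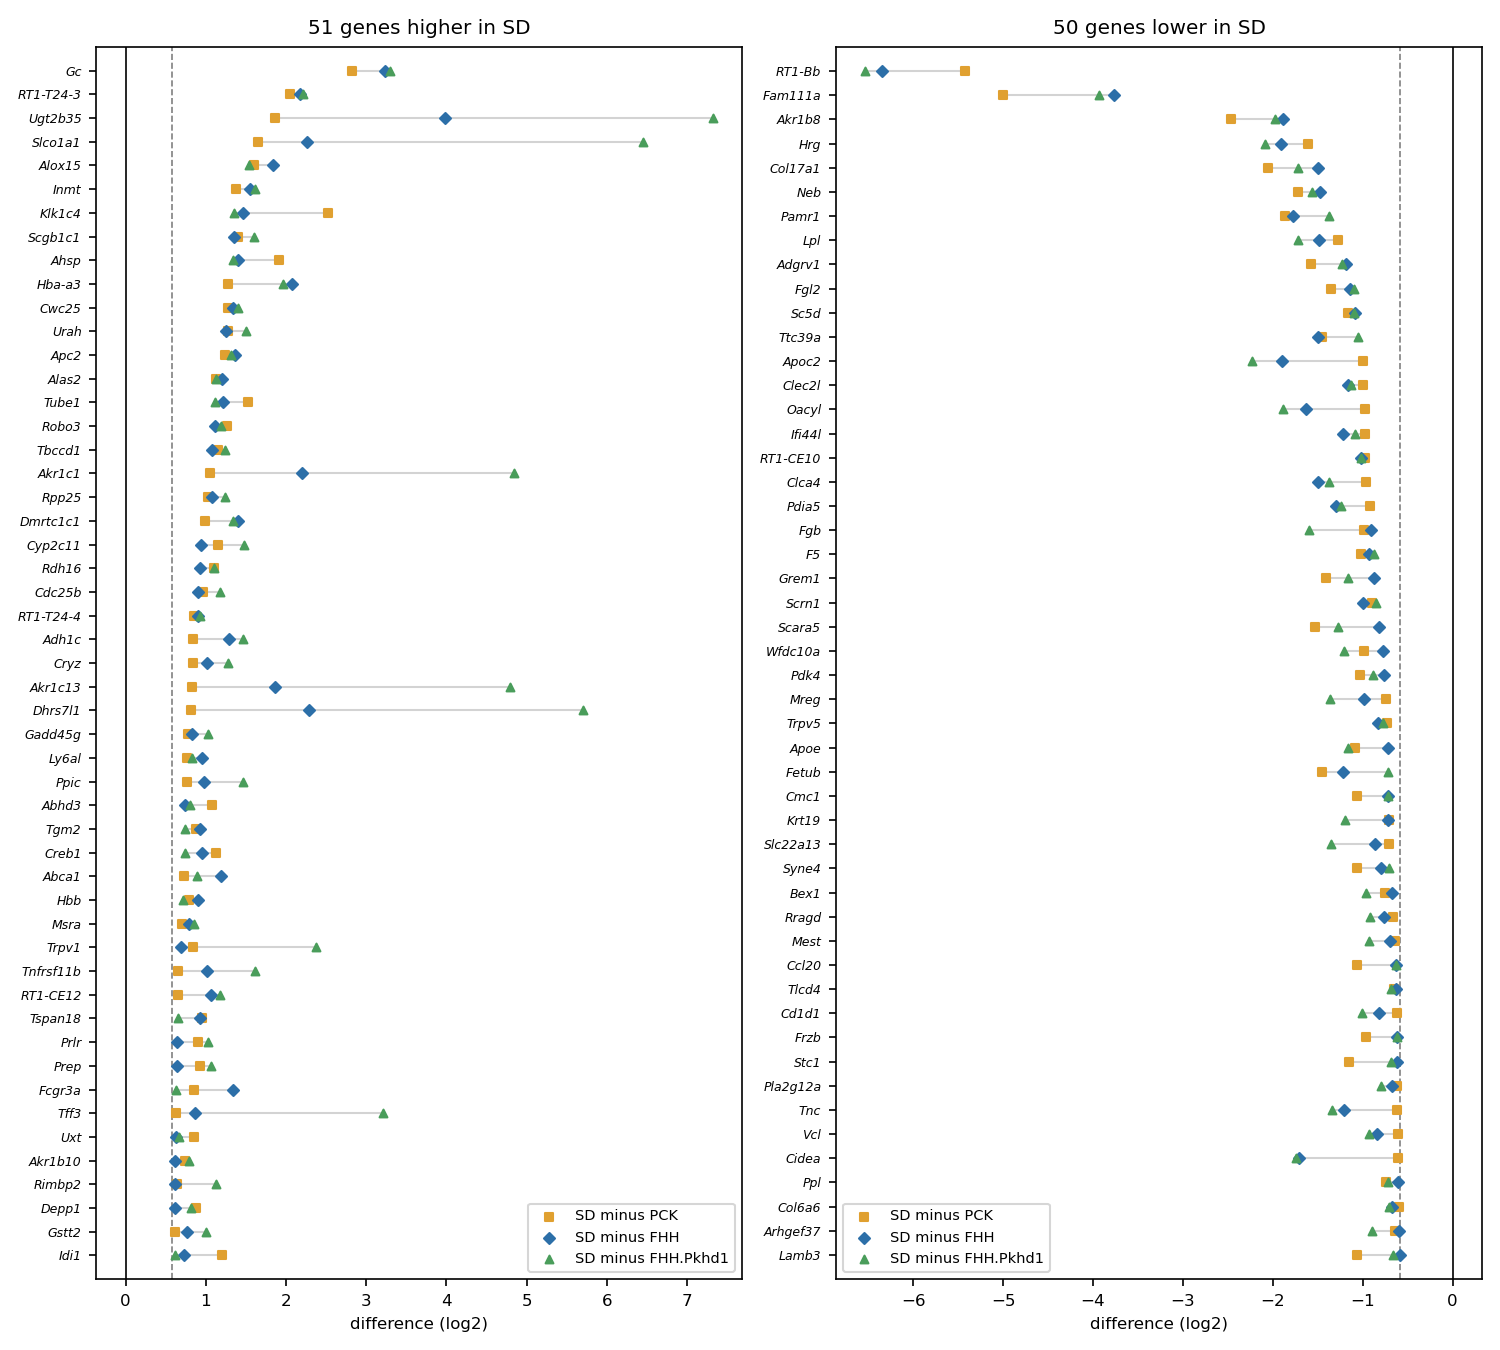
Differences on the log2 scale between the SD pool and each other pool for the 51 genes higher in SD (left) and the 50 lower in SD (right), ordered by the smallest of the 3; squares stand for SD minus PCK, diamonds for SD minus FHH, triangles for SD minus FHH.Pkhd1, and the dashed line marks 1.5-fold. Most genes have 3 differences of like size, while Ugt2b35, Slco1a1, Dhrs7l1, Akr1c1 and Akr1c13 have a far larger difference from FHH.Pkhd1 than from PCK.

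Red cell transcripts formed a group among the genes higher in SD. Ahsp, Alas2, Hbb and Hba-a3 were all higher in SD than in each other pool, by 1.64-fold to 2.54-fold against the nearest pool. Ahsp encodes a chaperone of free alpha globin, Alas2 the red cell enzyme that starts heme synthesis, and Hbb and Hba-a3 globin chains. The sequences before the starts of 3 of these genes are printed because the genes were higher in SD together. Each is the 250 bases before the RefSeq start on assembly GRCr8, 5' to 3' on the gene's strand, and Ahsp is not in the promoter table used. Capitals mark matches, on either strand, to 4 GATA-type motifs, which are AGATAA and its forms with T as the first letter, G as the last, or both, or to CACCC, motifs known from red cell genes.
Alas2, chrX:22895200-22895449, plus strand: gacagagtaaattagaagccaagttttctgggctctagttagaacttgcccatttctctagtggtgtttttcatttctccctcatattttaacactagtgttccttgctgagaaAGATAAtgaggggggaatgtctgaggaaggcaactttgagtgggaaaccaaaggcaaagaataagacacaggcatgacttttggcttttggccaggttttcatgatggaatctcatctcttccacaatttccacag
Hbb, chr1:167663722-167663971, minus strand: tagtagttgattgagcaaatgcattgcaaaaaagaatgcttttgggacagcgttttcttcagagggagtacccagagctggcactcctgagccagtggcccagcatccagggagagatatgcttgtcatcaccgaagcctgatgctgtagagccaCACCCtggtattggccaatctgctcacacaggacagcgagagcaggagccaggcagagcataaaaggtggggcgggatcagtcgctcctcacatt
Hba-a3, chr10:15816944-15817193, minus strand: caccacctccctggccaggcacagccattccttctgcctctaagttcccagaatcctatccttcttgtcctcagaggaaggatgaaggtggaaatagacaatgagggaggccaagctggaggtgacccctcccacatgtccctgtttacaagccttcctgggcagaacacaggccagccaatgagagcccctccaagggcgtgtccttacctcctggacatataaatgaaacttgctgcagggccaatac
The Alas2 window held 1 GATA-type match, AGATAA, beginning 136 bases before the start, and the Hbb window held 1 CACCC match, beginning 95 bases before it. The Hba-a3 window held no match to these letters. Of 27457 promoter windows of the same length, 7340 (26.7%) held a GATA-type match, 13569 (49.4%) a CACCC match and 3028 (11%) both, so such matches were common among windows of all genes, and a match describes letters and not a bound site.

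Ahsp had log2 signals of 7.73, 7.49 and 7.68 on the SD arrays, against 5.62, 5.82 and 5.73 in PCK, 6.35, 6.23 and 6.13 in FHH, and 6.23, 6.31 and 6.33 in FHH.Pkhd1. The SD arrays lay above every other array, and the PCK arrays lay below every other array. The difference was smallest against FHH.Pkhd1, at 1.35 ± 0.07 (SE, limma adjusted p = 1.29e-07). Alas2 was at 8.69, 8.50 and 8.58 in SD, against 7.44, 7.33 and 7.60 in PCK, 7.42, 7.39 and 7.34 in FHH, and 7.38, 7.42 and 7.57 in FHH.Pkhd1. The other pools lay within 0.08 of each other for Alas2, and SD stood 1.13 ± 0.07 above the nearest (limma adjusted p = 6.16e-07). Hbb was at 13.45, 13.47 and 13.44 in SD, against 12.66, 12.68 and 12.64 in PCK, 12.57, 12.53 and 12.55 in FHH, and 12.74, 12.79 and 12.67 in FHH.Pkhd1. Its smallest difference was 0.72 ± 0.04 (limma adjusted p = 6.52e-08), near the top of the signal range, which ends at 14.41. Hba-a3 was at 12.35, 12.38 and 12.41 in SD, against 11.10, 11.16 and 11.03 in PCK, 10.09, 10.45 and 10.39 in FHH, and 10.43, 10.51 and 10.32 in FHH.Pkhd1. For both globin genes the SD arrays did not overlap any other pool. Globin genes are near-identical copies, and the Hbb probe set is of a kind that can bind several of them. A further 5 probe sets are annotated to more than 1 globin gene, and SD was the highest pool on each, by 0.34 to 1.13 over the nearest pool.

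The group did not extend over the whole red cell list. Of 33 red cell and erythroid genes listed, 13 were tested, 3 were called higher in SD (Ahsp, Alas2 and Hbb) and 0 lower. Hba-a3 is not on the list. Ahsp and Alas2 were markers set for the comparison with earlier results of these data known. The count is therefore no separate evidence. The list's median difference between SD and the mean of the other pools was 0.10, against -0.03 over all genes tested. Rhd, a blood group antigen of the red cell membrane, missed the size limit, with SD above PCK by 0.70 and above FHH and FHH.Pkhd1 by 0.48 each. Gypc, another membrane protein, averaged 7.78 in SD, against 8.04 in PCK, 8.08 in FHH and 8.11 in FHH.Pkhd1. Slc4a1, the anion exchanger that red cells share with intercalated cells, averaged 9.38 in SD, against 9.43 in PCK, 9.27 in FHH and 9.92 in FHH.Pkhd1. The mean log2 signal over the 13 genes was 8.65 in SD, against 8.29 in PCK, 8.33 in FHH and 8.40 in FHH.Pkhd1. How much blood each pool held is not given by the labels, and its part in these differences was not tested.

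**Figure D2:**
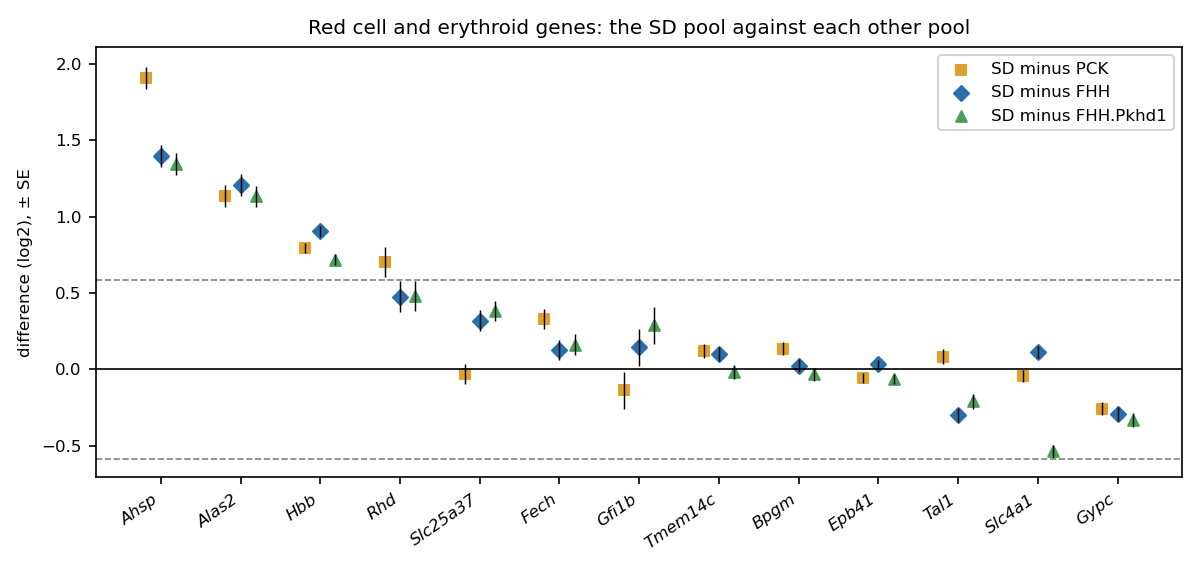
Log2 differences between the SD pool and each other pool, with SE bars, for the 13 red cell and erythroid genes tested; squares stand for SD minus PCK, diamonds for SD minus FHH, triangles for SD minus FHH.Pkhd1, and dashed lines mark 1.5-fold. Ahsp, Alas2 and Hbb have all 3 differences above the line, and Gypc has all 3 below 0.

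Gc had the largest smallest difference among the genes higher in SD. Its log2 signals were 9.43, 9.46 and 9.38 in SD, against 6.46, 6.74 and 6.61 in PCK, 6.28, 6.16 and 6.13 in FHH, and 6.05, 6.24 and 6.10 in FHH.Pkhd1. The SD arrays stood well clear of the others, 7.06-fold above PCK, the nearest pool (2.82 ± 0.07, limma adjusted p = 1.21e-10). A second Gc probe set lay below the detection level of 5.74 in every pool, and there too the SD arrays, at 4.50 to 5.02, lay above the other 9. That level was set at the 40th percentile of the array values, with no background measured, so a fold is given only where both groups reach it. Among 22 plasma protein genes tested, Gc was the 1 called higher in SD, and Apoe and Fgb were called lower. The list's median difference was -0.22, against -0.03 over all genes. Alb, the most abundant plasma protein of the liver, was intermediate in SD, at 7.88, against 5.83 in PCK, 9.58 in FHH and 10.05 in FHH.Pkhd1.

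Fam111a, which encodes a nuclear protease that restricts some viruses and is mutated in a human disorder of low calcium and short stature, had the lowest adjusted p of the genes lower in SD. It was at 6.87, 6.90 and 6.87 in SD, against 11.85, 11.92 and 11.88 in PCK, 10.67, 10.64 and 10.62 in FHH, and 10.82, 10.80 and 10.84 in FHH.Pkhd1. SD was the lowest pool and PCK the highest, with both FHH-background pools between and nearer to PCK. The smallest difference, against FHH, was -3.76 ± 0.03, or 13.6-fold (limma adjusted p = 9.01e-16). Of 19 vitamin D and mineral handling genes tested, Gc was called higher in SD, and Fam111a and the calcium channel Trpv5 were called lower. Gc and Fam111a were also markers set for the comparison, so this count is no separate evidence either. Trpv5 was weak throughout, at 5.13 in SD, against 5.86 in PCK, 5.96 in FHH and 5.90 in FHH.Pkhd1, and its SD mean lay below the detection level. A second Trpv5 probe set, also below that level, showed overlapping arrays, at 5.19 to 5.59 in SD. Fam111a was also on the interferon and antiviral list, where it was the 1 of 23 genes tested that was called.

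**Figure D3:**
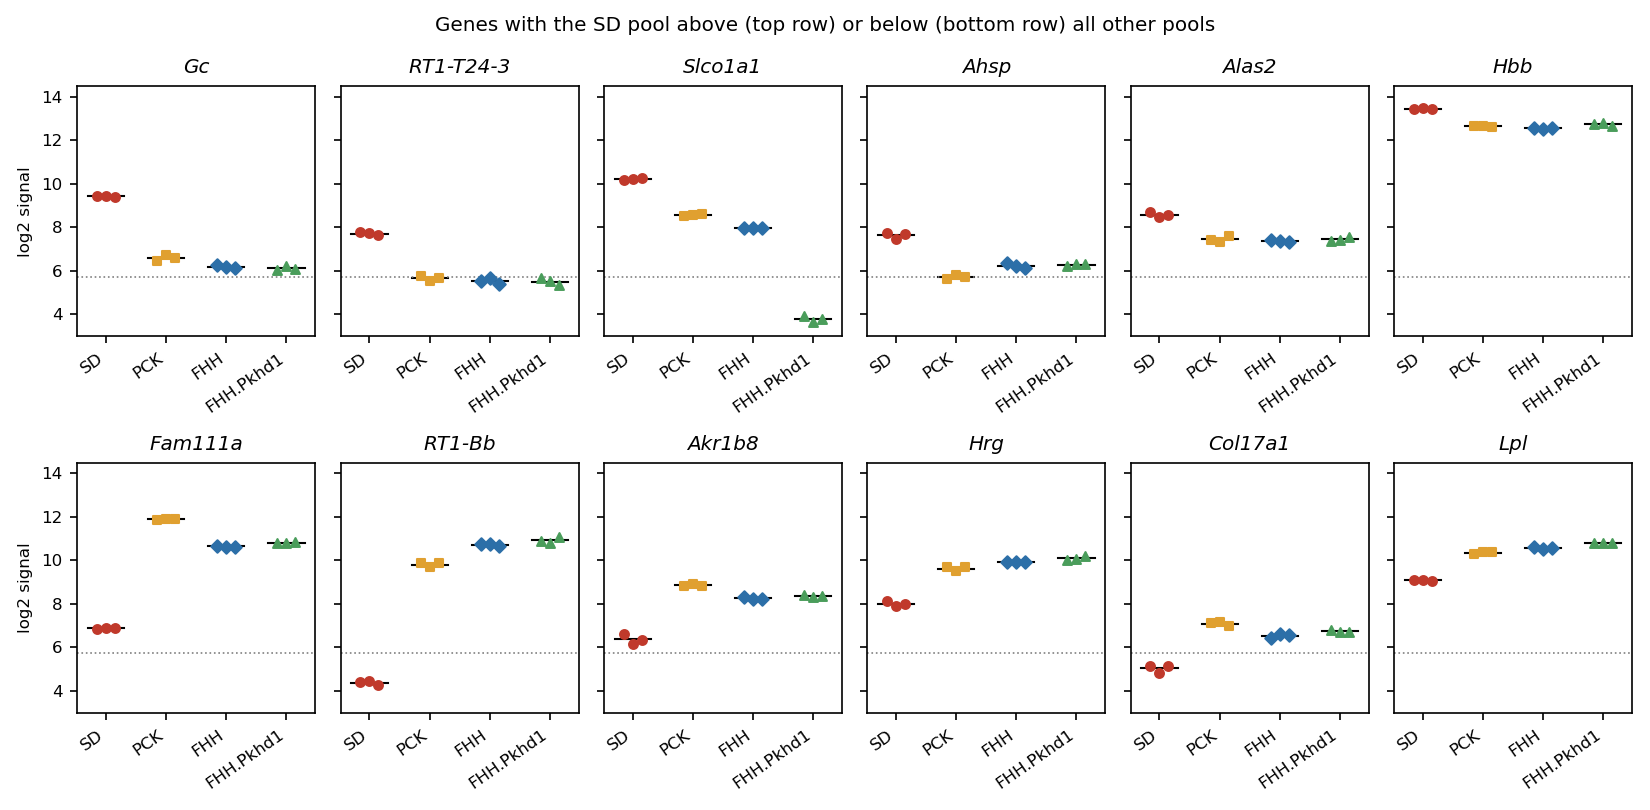
Log2 signals of each array (points) and pool means (bars) for 6 genes with the SD pool above the other pools (top row) and 6 with it below (bottom row); pools run SD, PCK, FHH, FHH.Pkhd1, and the dotted line is the detection level of 5.74. In each panel the 3 SD points do not overlap those of another pool. For Slco1a1, Fam111a, RT1-Bb, Hrg, Col17a1 and Lpl the other pools do not overlap each other either.

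Enzymes and carriers that clear drugs and steroids were the main group among the genes higher in SD with graded levels. Of 31 phase I genes tested, 4 were called higher in SD (Akr1c1, Akr1c13, Dhrs7l1 and Cyp2c11) and Akr1b8 was called lower. Cyp2c11 met the filter for testing only through its SD mean. Of 34 phase II genes tested, Ugt2b35 and Gstt2 were called higher and 0 lower, and of 25 organic ion transporters Slco1a1 was called higher and Slc22a13 lower. Over all genes tested, 0.468% were called higher in SD and 0.459% lower. The medians of these 3 lists were 0.09, 0.15 and -0.01. Ugt2b35, a glucuronosyltransferase, was at 11.11, 11.09 and 11.11 in SD, against 9.19, 9.19 and 9.34 in PCK, 7.37, 7.04 and 6.96 in FHH, and 3.96, 3.61 and 3.78 in FHH.Pkhd1. Slco1a1, an organic anion uptake carrier, was at 10.19, 10.21 and 10.28 in SD, against 8.54, 8.57 and 8.62 in PCK, 7.97, 7.98 and 7.96 in FHH, and 3.92, 3.63 and 3.78 in FHH.Pkhd1. For both genes the 4 pools did not overlap and ran downward in the order SD, PCK, FHH, FHH.Pkhd1, with the last below the detection level. SD exceeded PCK by 1.86 ± 0.10 for Ugt2b35 (limma adjusted p = 1.29e-07) and by 1.65 ± 0.06 for Slco1a1 (limma adjusted p = 3.99e-09).

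The aldo-keto reductases Akr1c1 and Akr1c13, relatives of hydroxysteroid dehydrogenases, followed the same order. Akr1c1 averaged 10.06 in SD, against 9.01 in PCK, 7.86 in FHH and 5.22 in FHH.Pkhd1. Akr1c13 averaged 11.03 in SD, against 10.20 in PCK, 9.16 in FHH and 6.23 in FHH.Pkhd1. Dhrs7l1, of the short-chain dehydrogenase family, averaged 10.37 in SD, against 9.56 in PCK, 8.09 in FHH and 4.67 in FHH.Pkhd1. In all 3 the SD pool stood near PCK and far from FHH.Pkhd1, so the limit of 1.5-fold was met with a small margin on one side and a wide one on the other. Tff3, a secreted trefoil peptide of epithelia, averaged 11.93 in SD, against 11.31 in PCK, 11.06 in FHH and 8.72 in FHH.Pkhd1. Quantile normalization took its smallest difference to 0.57, just under the limit. The spread among the other 3 pools exceeded 1 log2 unit at 8 of the 51 genes, which were these 6, the kallikrein Klk1c4 and the heat-gated channel Trpv1. At 20 of the 51 the levels ran in the order SD, PCK, FHH, FHH.Pkhd1, and at 8 the FHH.Pkhd1 pool was itself called outside the others at the low end.

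Slco1a1 in the kidney and Cyp2c11 in the liver are known in rats as genes with higher levels in males. Cyp2c11, a steroid hydroxylase, was at 5.87, 5.75 and 5.71 in SD, against 4.86, 4.52 and 4.51 in PCK, 4.70, 4.98 and 4.84 in FHH, and 4.21, 4.48 and 4.21 in FHH.Pkhd1, so that the SD arrays alone were near the detection level. Sex is not given in the labels. The Y-linked gene Eif2s3y averaged 9.66 in SD, against 9.85 in PCK, 9.57 in FHH and 9.51 in FHH.Pkhd1, and Uty averaged 8.66, against 8.70, 8.61 and 8.64 in the same order. The SD arrays did not lie outside the others for either gene, and no value of the 4 Xist probe sets exceeded 3.74. The part of sex or maturity in the graded levels was not tested.

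Alox15 and Inmt were higher in SD, with like levels in the 3 other pools. Alox15, a lipoxygenase that oxidizes polyunsaturated fatty acids, was at 8.28, 8.13 and 8.11 in SD, against 6.62, 6.47 and 6.61 in PCK, 6.23, 6.50 and 6.27 in FHH, and 6.58, 6.64 and 6.68 in FHH.Pkhd1. Inmt, an amine N-methyltransferase, was at 11.63, 11.61 and 11.62 in SD, against 10.23, 10.22 and 10.29 in PCK, 10.10, 10.06 and 10.04 in FHH, and 10.09, 9.96 and 9.95 in FHH.Pkhd1. SD stood 2.90-fold above the nearest pool for Alox15 (limma adjusted p = 3.80e-08) and 2.59-fold for Inmt (limma adjusted p = 8.87e-10). Klk1c4, a kallikrein-family protease, averaged 8.70 in SD, against 6.17 in PCK, 7.23 in FHH and 7.34 in FHH.Pkhd1, and was the 1 of 12 kallikrein and renin-angiotensin genes called. Apc2, a relative of the Wnt pathway protein Apc, averaged 8.47 in SD, against 7.23 in PCK, 7.10 in FHH and 7.15 in FHH.Pkhd1, and Tube1, epsilon-tubulin, averaged 7.54 in SD, against 6.01, 6.32 and 6.41 in the same order. At 7 of the 51 genes all other pools lay below the detection level. These 7 met the filter for testing only through their SD mean, so their calls and p-values are no separate evidence. Among them were RT1-T24-3, Cyp2c11, Scgb1c1, a secretoglobin, Cwc25, a spliceosome-associated protein, and Urah, an enzyme of urate breakdown.

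Further genes higher in SD had smaller differences. Tgm2, a transglutaminase that crosslinks proteins, was at 11.55, 11.56 and 11.54 in SD, against 10.67, 10.69 and 10.67 in PCK, 10.64, 10.66 and 10.58 in FHH, and 10.80, 10.84 and 10.78 in FHH.Pkhd1. Arrays of each pool lay within 0.08 for Tgm2, so a difference of 0.74 ± 0.03 was far outside them (limma adjusted p = 2.03e-08). Cryz, a quinone reductase, and Adh1c, an alcohol dehydrogenase, were each 0.84 above PCK, the nearest pool. Gstt2, a glutathione transferase, averaged 10.01 in SD, against 9.40 in PCK, 9.24 in FHH and 9.01 in FHH.Pkhd1, but its SD arrays ran from 9.78 to 10.25, and without SD replicate 1 the smallest difference was 0.49, below the limit. Fcgr3a, an immunoglobulin Fc receptor of macrophages, averaged 6.84 in SD, against 5.99, 5.50 and 6.21 in PCK, FHH and FHH.Pkhd1, and without SD replicate 2 its smallest difference was 0.56. It was the 1 of 15 macrophage genes tested that was called, and the median of that list was 0.10. Idi1, an early enzyme of sterol synthesis, was just inside the limit at 0.61, and Acad10, a gene of the acyl-CoA dehydrogenase family, just outside it at 0.58.

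Genes of lipoprotein handling were among those lower in SD, a grouping made after the values were seen. Lpl, the lipase that releases fatty acids from lipoproteins, was at 9.08, 9.11 and 9.05 in SD, against 10.29, 10.39 and 10.37 in PCK, 10.61, 10.51 and 10.56 in FHH, and 10.79, 10.81 and 10.82 in FHH.Pkhd1. Apoc2, the activator of that lipase, was at 7.94, 7.90 and 7.81 in SD, against 8.80, 8.88 and 8.97 in PCK, 9.80, 9.77 and 9.78 in FHH, and 10.13, 10.05 and 10.16 in FHH.Pkhd1. Apoe, a ligand for lipoprotein receptors, was at 11.49, 11.42 and 11.44 in SD, against 12.55, 12.51 and 12.54 in PCK, 12.22, 12.13 and 12.15 in FHH, and 12.61, 12.57 and 12.67 in FHH.Pkhd1. In each gene the SD arrays lay below the other 9, with a smallest difference of -1.27 ± 0.04 for Lpl (limma adjusted p = 8.87e-10), -1.002 ± 0.05 for Apoc2 (limma adjusted p = 5.64e-08) and -0.72 ± 0.04 for Apoe (limma adjusted p = 1.28e-07). Abca1, which exports cholesterol to lipoproteins, was called higher in SD, and its second detected probe set ran the other way. Of 14 adipocyte genes tested, Lpl and Cidea were called lower in SD and 0 higher. Cidea, a lipid droplet protein, lost the call without SD replicate 3 (-0.56). The list had median differences of -0.04 for SD minus PCK, -0.64 for SD minus FHH and -0.77 for SD minus FHH.Pkhd1. The fat hormone Adipoq averaged 6.17 in SD, against 5.98 in PCK, 6.44 in FHH and 6.16 in FHH.Pkhd1, and the part of adhering fat in these results was not tested.

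Genes of coagulation and related plasma proteins were also lower in SD, again a grouping made after the values were seen. Hrg, histidine-rich glycoprotein, which binds heparin and plasminogen, was at 8.12, 7.92 and 8.01 in SD, against 9.68, 9.52 and 9.68 in PCK, 9.92, 9.92 and 9.93 in FHH, and 10.04, 10.06 and 10.20 in FHH.Pkhd1. SD was 3.06-fold below PCK, the nearest pool (limma adjusted p = 6.01e-09). Fgb, a fibrinogen chain, averaged 6.12 in SD, against 7.11 in PCK, 7.03 in FHH and 7.72 in FHH.Pkhd1, and F5, coagulation factor V, averaged 7.16 in SD, against 8.18, 8.09 and 8.03 in the same order. Fga, another fibrinogen chain, and F2, prothrombin, were not called, with SD at 7.47 for Fga, against 8.51 in PCK, 7.84 in FHH and 7.68 in FHH.Pkhd1, and at 7.53 for F2, against 9.03, 7.94 and 7.78. Fetub, a plasma protease inhibitor encoded beside Hrg, averaged 5.86 in SD, against 7.32 in PCK, 7.08 in FHH and 6.58 in FHH.Pkhd1.

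Col17a1, Tnc, Krt19 and Lamb3, genes of epithelial attachment and matrix grouped after their values were seen, were called lower in SD. Col17a1, the collagen of hemidesmosomes, was at 5.14, 4.81 and 5.15 in SD, against 7.10, 7.17 and 6.99 in PCK, 6.44, 6.61 and 6.56 in FHH, and 6.82, 6.72 and 6.72 in FHH.Pkhd1. Its SD arrays lay below the detection level and below every other array (SD minus FHH was -1.4997 ± 0.08, limma adjusted p = 1.95e-07). The matrix glycoprotein Tnc averaged 8.004 in SD, against 8.62 in PCK, 9.21 in FHH and 9.35 in FHH.Pkhd1. Of 35 matrix genes tested, Col17a1 and Tnc were called lower in SD and 0 higher, with a median of -0.03. Krt19, a keratin of ducts and urothelium, averaged 8.57 in SD, against 9.28 in PCK, 9.29 in FHH and 9.77 in FHH.Pkhd1. Lamb3, a laminin chain of the same attachment complex as Col17a1, was just inside the limit at -0.59, and lost the call without SD replicate 3 (-0.46), FHH replicate 1 (-0.54) or FHH replicate 2 (-0.58). Upk1b, a urothelial plaque protein, was just outside it at -0.58, and the 8 urothelial genes tested all had negative mean differences with 0 called. Negative signs were also the commoner ones over all genes tested, with a median of -0.03. Grem1, a secreted antagonist of bone morphogenetic proteins, was at 8.53, 8.52 and 8.55 in SD, against 9.88, 10.04 and 9.92 in PCK, 9.46, 9.37 and 9.39 in FHH, and 9.71, 9.61 and 9.77 in FHH.Pkhd1.

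Akr1b8, an aldo-keto reductase of the aldose reductase branch, was the largest difference among the other genes lower in SD. It was at 6.62, 6.18 and 6.34 in SD, against 8.82, 8.91 and 8.82 in PCK, 8.34, 8.24 and 8.24 in FHH, and 8.39, 8.31 and 8.35 in FHH.Pkhd1, a smallest difference of -1.89 ± 0.09 (limma adjusted p = 2.72e-08). Adgrv1, a very large adhesion receptor, was at 9.55, 9.49 and 9.43 in SD, against 11.03, 11.09 and 11.07 in PCK, 10.75, 10.61 and 10.67 in FHH, and 10.71, 10.73 and 10.74 in FHH.Pkhd1. Pamr1, a secreted protein with a peptidase-like domain, averaged 7.56 in SD, against 9.42 in PCK, 9.33 in FHH and 8.94 in FHH.Pkhd1, and Fgl2, a fibrinogen-like protein of immune cells, averaged 7.48 in SD, against 8.82, 8.62 and 8.57 in the same order. The means of the other pools spanned 0.58 log2 units for Akr1b8, 0.38 for Adgrv1, 0.48 for Pamr1 and 0.25 for Fgl2. Slc22a13, a urate and nicotinate carrier, averaged 7.11 in SD, against 7.82 in PCK, 7.98 in FHH and 8.47 in FHH.Pkhd1. Neb, the muscle ruler protein nebulin, and Ttc39a had SD means below the detection level, as did 12 of the 50 genes in all.

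Histocompatibility genes gave both the largest difference and its opposite. RT1-Bb, the beta chain of a class II molecule, was at 4.41, 4.48 and 4.27 in SD, against 9.86, 9.68 and 9.89 in PCK, 10.75, 10.78 and 10.67 in FHH, and 10.87, 10.81 and 11.07 in FHH.Pkhd1. This was a smallest difference of -5.42 ± 0.08 (limma adjusted p = 1.82e-13), with SD below the detection level. A second probe set named for RT1-Bb ran the other way, at 9.44, 9.48 and 9.50 in SD, against 4.28, 4.27 and 4.28 in PCK, 4.32, 4.34 and 4.06 in FHH, and 4.01, 4.10 and 4.20 in FHH.Pkhd1. Each of the 2 probe sets was thus dim in the pools where the other was bright, and the gene's total level cannot be ordered from them. The mean over both gave a smallest difference of -0.12, with no call. The alpha chain RT1-Ba averaged 9.95 in SD, against 9.72 in PCK, 10.67 in FHH and 10.98 in FHH.Pkhd1. Class II genes of the rat vary in sequence between strains, and whether probe sequence differences account for the paired pattern was not tested.

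Class I genes were higher and lower in SD by locus. RT1-T24-3 was at 7.78, 7.73 and 7.63 in SD, against 5.79, 5.52 and 5.68 in PCK, 5.56, 5.66 and 5.40 in FHH, and 5.66, 5.52 and 5.34 in FHH.Pkhd1, with the other pools below the detection level on average (2.05 ± 0.09, limma adjusted p = 2.51e-08). This gene met the filter for testing only through its SD mean. Its neighbour RT1-T24-4 averaged 9.90 in SD, against 9.05 in PCK, 9.003 in FHH and 8.97 in FHH.Pkhd1. RT1-CE12 was 0.66 higher in SD than in PCK, the nearest pool, and RT1-CE10, with 2 genes between them, differed by -0.97 between SD and PCK, lower in SD. B2m, the shared light chain, averaged 12.98 in SD, against 12.91 in PCK, 12.87 in FHH and 12.81 in FHH.Pkhd1. Of the 21 genes tested from the histocompatibility list, RT1-T24-4 was called higher, and RT1-Bb and RT1-CE10 lower. RT1-T24-3 and RT1-CE12, also called higher, are not on that list. Class I genes are near-identical copies, so signal from 1 copy on another's probe set cannot be told apart here.

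Other probe sets were compared for every called gene that has them. Of the 101 genes, 73 had 1 probe set, and 20 had at least 1 further detected probe set, 27 such probe sets in all. SD lay outside all other pools in the same direction on 21 of the 27, by at least 1.5-fold on 6, and 23 had the same sign of the mean difference. On 2 it lay outside in the opposite direction by at least 1.5-fold, RT1-Bb and Abca1. Abca1 was at 8.22, 8.15 and 8.25 in SD on the probe set kept, against 6.99 to 7.52 on the 9 other arrays, and at 5.88, 5.96 and 6.26 on the other, against 6.66 to 7.17 there. Sc5d, a late enzyme of sterol synthesis, was at 8.59, 8.32 and 8.51 in SD on the probe set kept, against 9.48 to 9.78 on the other arrays. Sc5d and Idi1 were the 2 of 19 sterol synthesis genes called, in opposite directions. On a second Sc5d probe set SD was also lower, by 0.40, and on the other it was higher, by 0.41. Prlr, the prolactin receptor, had a smallest difference of 0.65 on its brightest probe set, and averaging its probe sets gave -0.0418. Averaging all probe sets of a gene, detected or not, also ended the calls of Apoe (-0.24), Gstt2 (0.36), Trpv1 (0.48) and Sc5d (-0.32). The other Apoe probe set was below the detection level, at 4.10 in SD. The further detected probe sets of Gstt2 and Trpv1 had SD highest too, by 0.10 and 0.76. Calls lost on averaging depend on the choice of probe set. Where detected probe sets of a gene run opposite ways, as for RT1-Bb, Abca1, Sc5d and Prlr, the difference is a property of a probe set, and these genes are given here as uncertain.

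**Figure D4:**
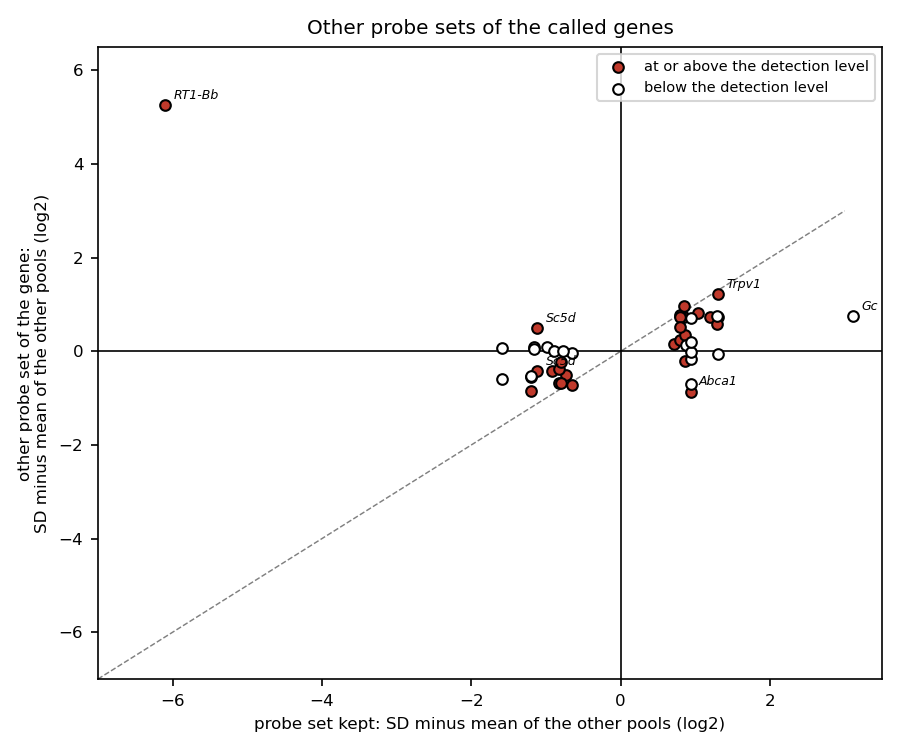
For each further probe set of a called gene, the mean log2 difference between SD and the other 3 pools (vertical) against that of the probe set kept (horizontal); filled points reach the detection level in some pool, open points do not, and the dashed line marks equality. Most filled points share the sign of the kept probe set, and RT1-Bb lies at the far opposite corner.

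Lists of kidney cell types held few or no called genes. Over all genes tested 0.927% were called, so most lists this short would hold 0, and the counts show no trait of these cell types. Of 26 proximal tubule genes tested, 0 were called, and of 15 loop and distal genes only Trpv5. The median differences between SD and the mean of the other pools were 0.04 and -0.03. Of 15 principal cell genes 14 had negative mean differences with a median of -0.30 and 0 called, and of 11 intercalated cell genes all 11 were negative with a median of -0.33 and 0 called. Over all genes tested the median was -0.03, and the SD mean was the lowest of the pools at 30.1% and the highest at 18.6%. Negative signs were thus the commoner ones among all genes. Foxi1, a transcription factor of intercalated cells, averaged 8.21 in SD, against 8.84 in PCK, 8.57 in FHH and 8.90 in FHH.Pkhd1, and the anion exchanger Slc26a4 averaged 8.73 in SD, against 9.16, 9.27 and 9.48 in the same order. Aqp3, the basolateral water channel of principal cells, averaged 10.58 in SD, against 11.20 in PCK, 10.91 in FHH and 11.16 in FHH.Pkhd1. These differences lay below the limit of 1.5-fold against at least 1 pool. None of the podocyte, endothelial, smooth muscle, lymphocyte, cell cycle, clock, immediate early, fatty acid synthesis, fatty acid oxidation, and cystic disease and cilium genes tested was called either, and their medians ran from -0.20 to 0.10.

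Tubule injury genes separated SD from PCK more than from the other pools. Of 25 tested, Tff3 was called higher in SD, and Fgb and Krt19 lower, and the median difference was -0.34 for SD minus PCK, against -0.03 for SD minus FHH and 0.00 for SD minus FHH.Pkhd1. Of 6 adrenal genes tested, 0 were called with SD outside all pools. Their median differences were 0.05 for SD minus PCK, -1.29 for SD minus FHH and -2.16 for SD minus FHH.Pkhd1. Their mean log2 signal was 5.45 in SD, 5.43 in PCK, 6.64 in FHH and 7.53 in FHH.Pkhd1. The 2 FHH-background pools thus differed from each other too, and the cause was not tested.

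The called genes lay on most chromosomes. Chromosomes 1 and 4 held 11 each, chromosome 2 held 10 and chromosome 20, with the histocompatibility region, held 9, which were 2.75% of its 327 genes tested, against 0.927% over all genes. Chromosomes 6 and 19 held 0. Of 100 called genes placed on the RefSeq gene order, 20 formed 11 pairs with at most 10 genes between them, and both genes of 7 pairs differed in the same direction. Urah and Scgb1c1 were adjacent and both higher in SD, as were RT1-T24-4 and RT1-T24-3. Hrg and Fetub were adjacent and both lower. Apoc2 and Apoe, with 2 genes between, were both lower. Akr1b8 and Akr1b10 were adjacent and ran opposite ways, at -1.89 and 0.62, and Akr1b10 lost its call when its probe sets were averaged (0.11).

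The last comparison asked at which of the genes that differ between SD and PCK the SD pool lay outside all other pools. SD differed from PCK at 339 genes, or 3.11% of those tested, with 155 higher in SD (1.42%) and 184 lower (1.69%). It differed from FHH at 361 genes (3.31%), 170 higher (1.56%) and 191 lower (1.75%), and from FHH.Pkhd1 at 596 (5.47%), 277 higher (2.54%) and 319 lower (2.93%). Of the 339 genes, 99 (29.2%) had SD but not PCK outside the other 3 pools, called SD alone here. In 127 (37.5%) PCK but not SD lay outside, called PCK alone, and 111 (32.7%) had neither SD nor PCK outside. These classes take no account of FHH or FHH.Pkhd1. Among the genes with SD outside, FHH.Pkhd1 was itself called outside at the opposite end at 8 higher and 1 lower in SD. At 2 genes (0.59%), Fam111a and Klk1c4, SD and PCK lay at opposite ends with both FHH-background pools between. Both comparisons share the SD and PCK arrays, so these shares are given as counts without a test.

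**Figure D5:**
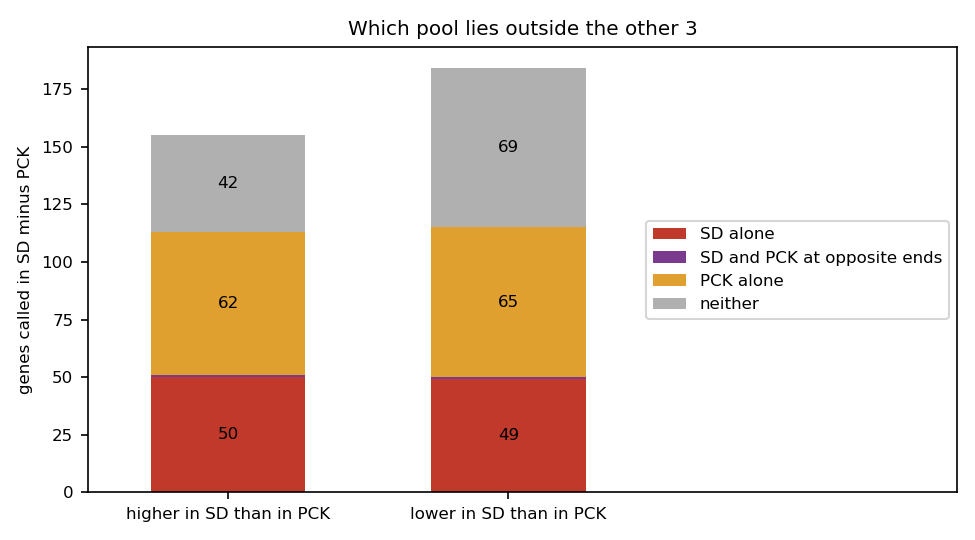
Genes called in SD minus PCK, split by whether SD, PCK, both or neither lay outside the other 3 pools, for genes higher (155) and lower (184) in SD. Calls of FHH and FHH.Pkhd1 are not part of the split, and the vertical axis counts genes. SD alone accounted for 50 and 49, PCK alone for 62 and 65, neither for 42 and 69, and the thin purple band for 1 gene in each bar.

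The largest differences between SD and PCK included genes with SD outside and genes with PCK outside. Of the 20 largest, 8 had SD alone outside, 10 had PCK alone outside and 2 had both at opposite ends. Of the 50 largest, the counts were 21, 27 and 2, with 0 in the remaining class. With SD alone outside, Gc was the largest apart from RT1-Bb, which is uncertain because SD lay -5.42 from the nearest pool on the probe set kept and 5.19 on the other. Serpina3n, a secreted protease inhibitor, was the largest with PCK alone outside, at 4.22 in SD, against 8.997 in PCK, with 4.46 in FHH and 4.28 in FHH.Pkhd1. Havcr1, the tubule injury molecule, was at 6.10 in SD, against 9.25 in PCK, with 6.9998 in FHH and 6.07 in FHH.Pkhd1. For both genes the FHH-background pools lay nearer to SD than to PCK, and for Gc, Alas2 and Lpl they lay nearer to PCK than to SD. On a scale that sets SD at 0 and PCK at 1, the mean of both FHH-background pools had a median of 1.08 over the 99 genes with SD alone outside and -0.12 over the 127 with PCK alone outside, as their choice implies. Over the 111 genes with neither it was 0.53. Over all 339 genes that mean was nearer to PCK at 159 (46.9%) and nearer to SD at 180.

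With 1 mean per pool, and the spread taken among the other 3 pools, 0 genes were called higher and 0 lower in SD than in all other pools. Of the genes tested, 567 had an unadjusted p under 0.05, where a share of 0.05 is 544.8 genes, and the lowest limma adjusted p was 0.146. The single comparisons of SD with 1 other pool were not run in that way. In the fit on arrays, 23 of 4354 tested probe sets without a gene symbol were higher in SD (0.528%) and 32 lower (0.735%), or 1.26% in all.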

How the data were processed

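Kidney RNA pools of 4 rat strains (6 animals each, 30 days of age) were measured on 3 arrays each, 12 in all, and arrays were grouped by their strain label. The authors deposited log2 signals per probe set, and RMA and Partek 6.2 are named for them in the submitters' processing notes (per the labels). Joint normalization of the 12 arrays is not stated there. The values (2.38 to 14.41) entered the fit unchanged. The files give no detection calls, and the number of arrays limits the precision.

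The table held 31099 probe sets, 57 of them controls, which were not tested. Among the remaining 31042, 20826 carried 1 gene symbol, 436 several and 9780 none in the platform annotation. Of those with 1 symbol, 20758 were matched to current RefSeq gene records of GRCr8 (names, chromosome and gene order only). Each of 14217 genes was represented by its brightest probe set, by the mean of the 12 arrays. Genes whose highest pool mean was at least 5.74, the 40th percentile over probe sets that are not controls, were tested (10895 genes). Unnamed probe sets (4354 tested) were fitted apart.

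Differences were fitted with limma 3.58.1 in R 4.3.3, with 1 mean per strain, contrasts SD minus PCK, SD minus FHH and SD minus FHH.Pkhd1, and eBayes moderation with 4.01 prior and 8 residual degrees of freedom. A gene took the largest of its 3 p-values, or 1 where the signs differed, followed by Benjamini-Hochberg adjustment across the genes tested. Tested on simulated data for SD outside the other pools with 10895 genes, the procedure called 0% of genes changed 1.25-fold, 98% of those changed 1.75-fold, 100% of those changed 2-fold or 4-fold, 0% of genes changed in PCK alone and 0% of unchanged genes. A 1.25-fold change lies below the limit of 1.5-fold, which largely implies the 0% there. With 1 pool per strain, these rates are no error rates for differences between strains.

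The named genes were, in each direction, the 15 largest smallest differences among called genes with SD arrays apart from all others and a proper symbol, up to 4 called members of each of 30 gene lists (the 2 largest where none was called), Fam111a, Gc, Ahsp and Alas2, and the genes on each side of the limit. Other genes were named after their values were seen. The comparison, the members and the lists were chosen with earlier results of these data known. Replicate numbers were taken from the labels. Deviations of same-numbered arrays from their pool means correlated at -0.33 to 0.34 over 18 pairs, of which 6 were over 0.1, so the numbers did not pair the arrays. Alternatives changed the filter, the choice of probe set, the size limit, the variance trend, the arrays fitted, the scaling, a replicate block, pool means and single arrays left out. Motifs were searched with Python 3.11.15, and figures were drawn with matplotlib 3.10.9.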

Additional observations from a re-analysis of the deposited data

Results flagged for a closer look

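Probe sets without a gene symbol were not part of the comparison of named genes. Fitted apart, 55 of the 4354 tested had the SD pool outside all other pools, 23 higher and 32 lower. The largest difference upward was on a probe set that averaged 6.99 in SD, against 4.35 in PCK, 4.47 in FHH and 4.37 in FHH.Pkhd1, and the next averaged 7.93 in SD, against 5.73, 5.93 and 5.00 in the same order. In the other direction the largest were -3.48 and -2.61 against the nearest pool (log2). Their genes are not named in the annotation used here.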

How the results depend on the processing

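With a limit of 2-fold, 19 genes were higher and 14 lower in SD, 33 of the SD minus PCK calls had SD outside, and 111, 114 and 179 genes were called against PCK, FHH and FHH.Pkhd1, with 22 unnamed probe sets. With no fold limit the same counts were 349, 557, 906, 3934, 4041 and 5462, with 225 unnamed probe sets. With 1 mean per pool (2 residual degrees of freedom) 0 genes were higher, 0 were lower, 0 SD minus PCK calls had SD outside, and 2 unnamed probe sets were called; the comparisons with a single pool were not run in that way. Leaving out each array in turn gave 50 to 56 genes higher, 47 to 52 lower, 338 to 359 calls against PCK, of which 99 to 106 had SD outside, 355 to 373 against FHH, 591 to 627 against FHH.Pkhd1 and 52 to 58 unnamed probe sets. With probe sets averaged per gene, 43 of the 51 genes and 38 of the 50 kept their call, and the smallest difference of Prlr turned to -0.0418. Quantile normalization kept 50 and 46, centring on array medians 51 and 47, and the stricter filter 44 and 39. With the replicate number as a block, all 51 and 50 calls of named genes were kept and 0 were added, and 54 unnamed probe sets were called. The cause was not tested beyond what each setting's construction shows. The arrays of 1 pool cannot show variation between animals, and signal near the detection level limits the weak genes.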
